A study of Rattus norvegicus with 21 samples.

Results

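The genes described here are 50 genes of the cell cycle and of DNA replication, followed across liver RNA of 21 male Wistar rats on Illumina bead arrays, which read RNA by hybridisation to probes on beads. They were named as a list, split by role into 7 genes of G1, 14 of S phase and 29 of mitosis, and a member was found by its symbol in the array's annotation. A named probe was found for 43 of the 50, among them 5 G1, 12 S phase and 26 mitosis genes, out of 13337 named genes and 22067 features tested. The other 7 (Ccnd3, Cdk2, Rrm1, Tk1, Top2a, Mki67 and Birc5) were not analysed here. At week 12 the groups were DEN 50 livers, DEN 100 livers and PBS livers, from rats given diethylnitrosamine (DEN), a carcinogen that injures and scars the liver, at 50 or 100 mg/kg, or phosphate-buffered saline, by weekly intraperitoneal injection. At week 18 the groups were DEN 50 rats given vehicle, DEN 50 rats given erlotinib at 0.5 mg/kg, DEN 50 rats given erlotinib at 2 mg/kg, and PBS rats with no vehicle injections. Erlotinib, an inhibitor of the epidermal growth factor receptor kinase, or its vehicle was injected intraperitoneally 5 times a week in weeks 13 to 18. Each of the 7 groups had 3 arrays, the labels call all DEN livers cirrhosis, and the tissue is the non-tumour part of the liver, taken after a washout of 1 week. The 2 erlotinib doses belong to different studies, and their vehicle rats were pooled without a label for the study, so dose and study cannot be told apart. Each array carries a rat number, here read as a separate rat although the labels do not say so outright, and the p-values cover the spread between arrays alone.

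In an adult liver nearly all hepatocytes rest outside the cell cycle, and they enter it again after injury or loss of tissue. D-type cyclins with Cdk4 carry a cell through G1, and E-type cyclins lead it into S phase, where the MCM helicase opens the DNA, Pcna clamps the polymerase to it, and Rrm2 and Tyms supply nucleotides. Cdk1 with A- and B-type cyclins then drives mitosis, in which kinases, motor proteins and the ubiquitin enzyme Ube2c build the spindle, part the chromosomes and end the division.

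Levels are log2 intensities after background correction and quantile normalisation, and a level of one gene cannot be set against that of another on these arrays. A gene rose or fell where limma's moderated test over all 22067 features gave a Benjamini-Hochberg adjusted p under 0.05. Some counts are given at an unadjusted p under 0.05. The share of all features at that cut was not counted, so these counts establish no change. Nor was the share of all features with a change above or below 0 counted, so counts of signs establish no change either. Changes are log2 differences ± SE, each from 3 arrays a group. Raw array medians ran from 105.0 to 186.9, and correlations between normalised arrays from 0.907 to 0.990. The hepatocyte markers had mean levels of 13.03 to 14.60 on every array, as the label liver implies. Rat 24 of the vehicle group stood apart, with 35 on the third principal component against -1.1 and -0.2 for the other vehicle rats, and the main counts that involve the vehicle group are also given without it.

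Most of the mitosis genes rose in DEN 50, DEN 100 and vehicle livers against the PBS livers of the same week, fewer of the S phase genes did, and at most 1 G1 gene did. In DEN 50 livers at week 12, 20 of the 43 genes rose and 1 fell, where 4.94% of all features rose and 4.4% fell. In DEN 100 livers 24 rose and none fell, where 9.92% of all features rose and 8.52% fell. In DEN 50 vehicle livers at week 18, 23 rose and none fell, where 8.27% of all features rose and 7.58% fell. The median change over the 43 genes was 0.55, 0.77 and 0.52 in these 3 comparisons, and over all features it was -0.01, -0.01 and -0.02. Without rat 24, 24 members rose and 1 fell in vehicle livers, with a median of 0.72. Leaving out rat 59 or rat 69 instead, 21 rose and none fell, with medians of 0.47 and 0.50. Arrays of the DEN group lay above all PBS arrays of the same week for 26 genes in DEN 50, 28 in DEN 100 and 27 in vehicle livers, where that held for 12%, 14.5% and 13.8% of all features. RNA from whole liver tissue cannot tell more cycling cells from more RNA per cell. In all, 34 of the 43 genes were called in at least 1 comparison, and 9 were called in none: Ccnd2, Cdk4, Ccne1, Mcm4, Mcm5, Cdc6, Fen1, Ccnb1 and Cdc25b.

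**Figure D1:**
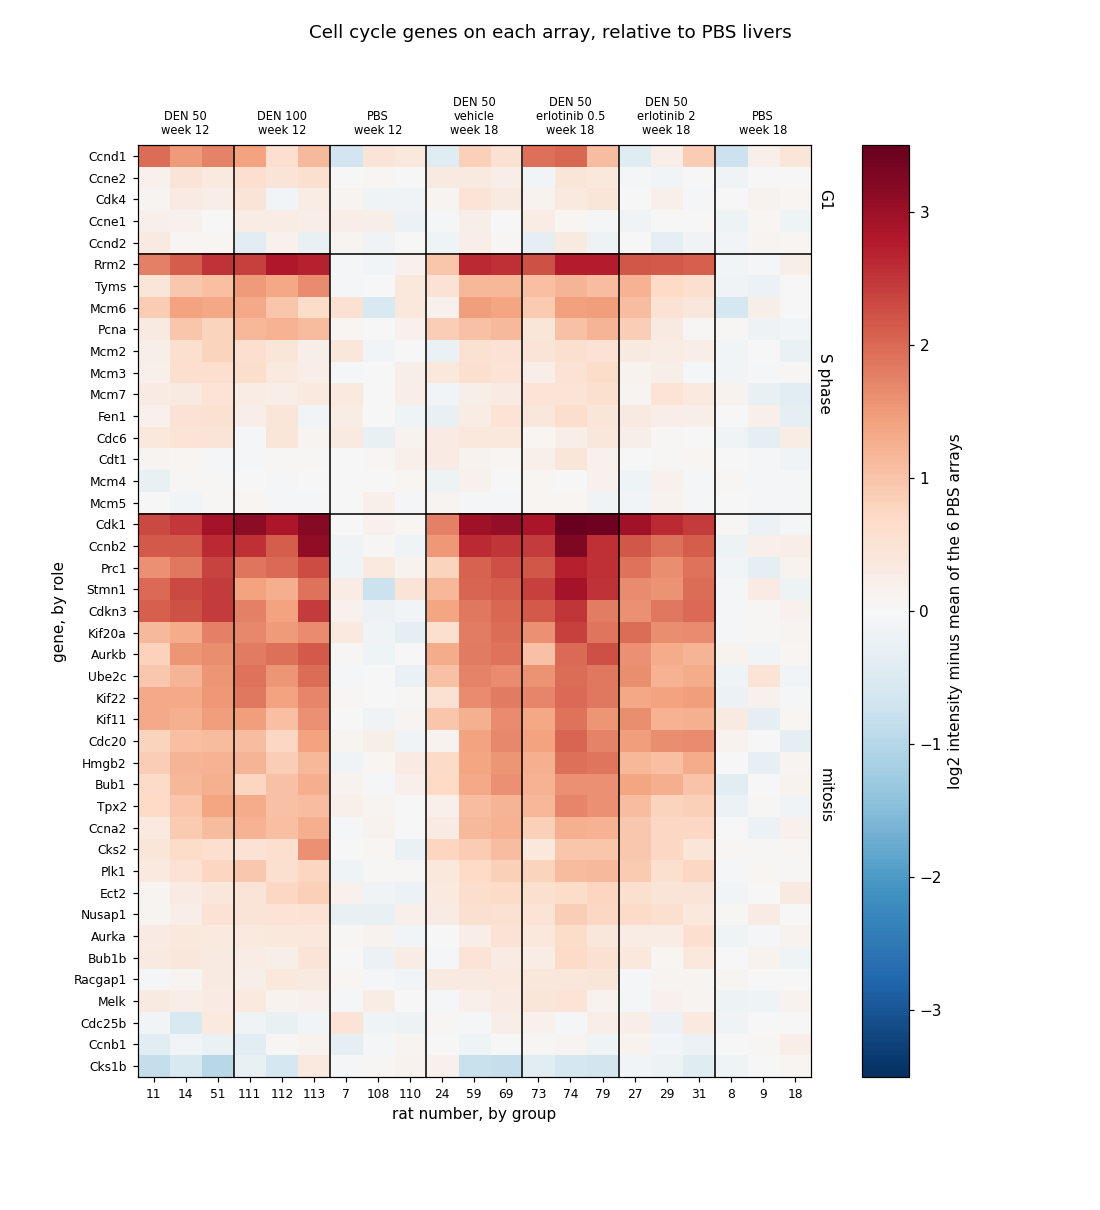
Log2 intensity of the 43 genes (down the page, by role) on each of 21 arrays (across, by group and rat number), minus the mean of the 6 PBS arrays for that gene; red is higher and blue lower. The mitosis genes from Cdk1 down to Ccna2 are red on the DEN arrays and near 0 on the PBS arrays, most G1 genes stay pale, Cks1b is blue on most DEN arrays, and rat 24 is paler than the other vehicle rats.

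Many of these genes lay near background in PBS livers, meaning at or below 6.38, the median of all normalised values. That held for 23 of the 43 genes in PBS livers at week 12 and for 22 at week 18, against 5 in each of the DEN 50, DEN 100 and vehicle groups, 4 at erlotinib 0.5 mg/kg and 9 at erlotinib 2 mg/kg. Mitosis genes made up most of them, with 17 of 26 near background in PBS livers at week 12, against 3 in DEN 50 and 2 in DEN 100 livers. The changes of these genes are set against PBS levels that were not clearly above background. There were 17 genes with all 15 DEN arrays above all 6 PBS arrays, where 3.33% of all features had that order: Rrm2 and Tyms of S phase, and Cdk1, Ccna2, Ccnb2, Cdkn3, Bub1, Aurkb, Plk1, Kif11, Kif20a, Kif22, Prc1, Ube2c, Cks2, Stmn1 and Hmgb2 of mitosis. No G1 gene was among them.

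Among the G1 genes, 1 of 5 rose in DEN 50 livers (Ccnd1), 1 of 5 in DEN 100 livers (Ccne2) and none in vehicle livers at week 18. Their median change was 0.26, 0.26 and 0.24. Ccnd1, cyclin D1, which growth factor signals raise in G1, read 12.33, 11.88 and 12.12 in DEN 50 livers and 11.79, 10.98 and 11.51 in DEN 100 livers, against 9.72, 10.83 and 10.76 in PBS livers at week 12. All 6 DEN arrays lay above the PBS arrays, and PBS rat 7 was lower than its group mates by about the size of the change in DEN 100 livers. Ccnd1 rose by 1.68 ± 0.37 in DEN 50 livers (adjusted p = 0.0046), a 3.2-fold rise, while in DEN 100 livers the change was 0.99 ± 0.37 (adjusted p = 0.072). At week 18, Ccnd1 read 9.96, 11.22 and 10.91 in vehicle livers, against 9.63, 10.58 and 10.82 in PBS livers. Those ranges overlapped, and the change was 0.35 ± 0.37 (adjusted p = 0.65). The DEN 50 effect at week 18 minus that at week 12 was -1.33 ± 0.53 (adjusted p = 0.31), so a difference between the time points was not established.

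Ccne2, cyclin E2, which partners Cdk2 at the start of S phase, read 6.36, 6.66 and 6.57 in DEN 50 livers and 6.80, 6.66 and 6.77 in DEN 100 livers, against 6.24, 6.29 and 6.24 in PBS livers. It rose by 0.48 ± 0.12 in DEN 100 livers (adjusted p = 0.0049), and in DEN 50 livers the change was 0.27 ± 0.12 (adjusted p = 0.20). At week 18 it read 6.52, 6.53 and 6.46 in vehicle livers, against 6.10, 6.23 and 6.21 in PBS livers, with no overlap and a change of 0.33 ± 0.12 (adjusted p = 0.072). Its PBS arrays all lay below the background mark. Cdk4, the kinase of the D-type cyclins, read 9.07, 9.26 and 9.20 in DEN 50 livers and 9.43, 8.87 and 9.22 in DEN 100 livers, against 9.08, 8.81 and 8.85 in PBS livers. Its change was 0.26 ± 0.14 in both (adjusted p = 0.30 and 0.23), and the DEN and PBS ranges overlapped. Ccnd2, cyclin D2, had group means under the background mark throughout, and it read 6.51, 6.26 and 6.27 in DEN 50 livers, against 6.29, 6.07 and 6.18 in PBS livers, a change of 0.17 ± 0.16 (adjusted p = 0.64). Ccne1, cyclin E1, changed by 0.04, 0.16 and 0.13 in the DEN 50, DEN 100 and vehicle comparisons, none of them called.

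Of the 12 S phase genes, 3 rose in DEN 50 livers (Mcm6, Rrm2 and Tyms), 3 in DEN 100 livers (Pcna, Rrm2 and Tyms), and 5 in vehicle livers at week 18 (Pcna, Mcm3, Mcm6, Rrm2 and Tyms). The median change over the 12 was 0.39, 0.22 and 0.39. Rrm2 had the largest change of the class in all 3. Rrm2, the regulated subunit of ribonucleotide reductase, read 7.91, 8.28 and 8.69 in DEN 50 livers and 8.55, 8.95 and 8.85 in DEN 100 livers, against 6.08, 6.05 and 6.32 in PBS livers at week 12. At week 18 it read 7.13, 8.77 and 8.70 in vehicle livers, against 6.05, 6.07 and 6.36 in PBS livers. Every PBS array lay below the background mark and every DEN array above it, with rat 24 the lowest DEN array. Rrm2 rose by 2.15 ± 0.29 in DEN 50 livers (adjusted p = 2.3e-05), by 2.63 ± 0.29 in DEN 100 livers (adjusted p = 3e-07) and by 2.04 ± 0.29 in vehicle livers (adjusted p = 1.8e-05).

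Tyms, thymidylate synthase, read 7.05, 7.57 and 7.70 in DEN 50 livers and 8.12, 8.0 and 8.28 in DEN 100 livers, against 6.58, 6.65 and 7.0 in PBS livers at week 12. The 3 groups did not overlap. Tyms rose by 0.70 ± 0.19 in DEN 50 livers (adjusted p = 0.019) and by 1.39 ± 0.19 in DEN 100 livers (adjusted p = 6.3e-06). The DEN 50 call was lost under 6 of 16 alternatives. Among them were leaving out PBS rat 7 (0.61), PBS rat PBS_108 (0.65), DEN 50 rat 14 (0.63) or DEN 50 rat 51 (0.57). At week 18 Tyms read 7.15, 7.80 and 7.79 in vehicle livers, against 6.52, 6.42 and 6.64 in PBS livers, and rose by 1.06 ± 0.19 (adjusted p = 0.00028). Pcna, the sliding clamp, read 11.17, 11.81 and 11.64 in DEN 50 livers and 12.0, 12.06 and 11.96 in DEN 100 livers, against 10.91, 10.88 and 11.01 in PBS livers. Both DEN groups lay above PBS, and Pcna rose by 1.07 ± 0.19 in DEN 100 livers (adjusted p = 0.00023). In DEN 50 livers its change was 0.61 ± 0.19 (adjusted p = 0.053), and without DEN 50 rat 11, the lowest of the group, it was 0.79 (adjusted p = 0.015). At week 18 Pcna read 11.71, 11.89 and 11.99 in vehicle livers, against 10.89, 10.67 and 10.74 in PBS livers, and rose by 1.10 ± 0.19 (adjusted p = 0.00027).

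The replicative helicase had calls for some of its subunits and not for others. Of its measured subunits, Mcm6 rose by 1.09 ± 0.31 in DEN 50 livers (adjusted p = 0.028) and by 1.12 ± 0.31 in vehicle livers (adjusted p = 0.015), and in DEN 100 livers its change was 0.85 ± 0.31 (adjusted p = 0.064). The first of these calls was lost under 7 of 16 alternatives and the second under 4 of 16. The first was lost, among others, without PBS rat PBS_108 (0.77), DEN 50 rat 14 (1.0) or DEN 50 rat 51 (1.03). The second was lost, among others, without PBS rat 8 (0.88) or vehicle rat 59 (0.89) or 69 (0.93). Mcm3 read 6.65, 6.85 and 6.76 in vehicle livers, against 6.19, 6.21 and 6.30 in PBS livers at week 18, and rose by 0.52 ± 0.14 (adjusted p = 0.010). At week 12 it read 6.45, 6.88 and 6.85 in DEN 50 livers and 6.88, 6.63 and 6.51 in DEN 100 livers, against 6.21, 6.26 and 6.47 in PBS livers, and its changes of 0.41 and 0.36 were not called (adjusted p = 0.064 and 0.077). Mcm2 (0.40, 0.30 and 0.38 in the DEN 50, DEN 100 and vehicle comparisons) and Mcm7 (0.17, 0.10 and 0.32) were not called, and Mcm4 and Mcm5 stayed within 0.10 of 0 in all 3. Mcm5 had a second probe, with changes of 0.09, -0.01 and -0.29, none of them called either. The loading factors Cdc6 and Cdt1 and the flap endonuclease Fen1, which trims lagging-strand fragments, were not called in these 3 comparisons.

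**Figure D2:**
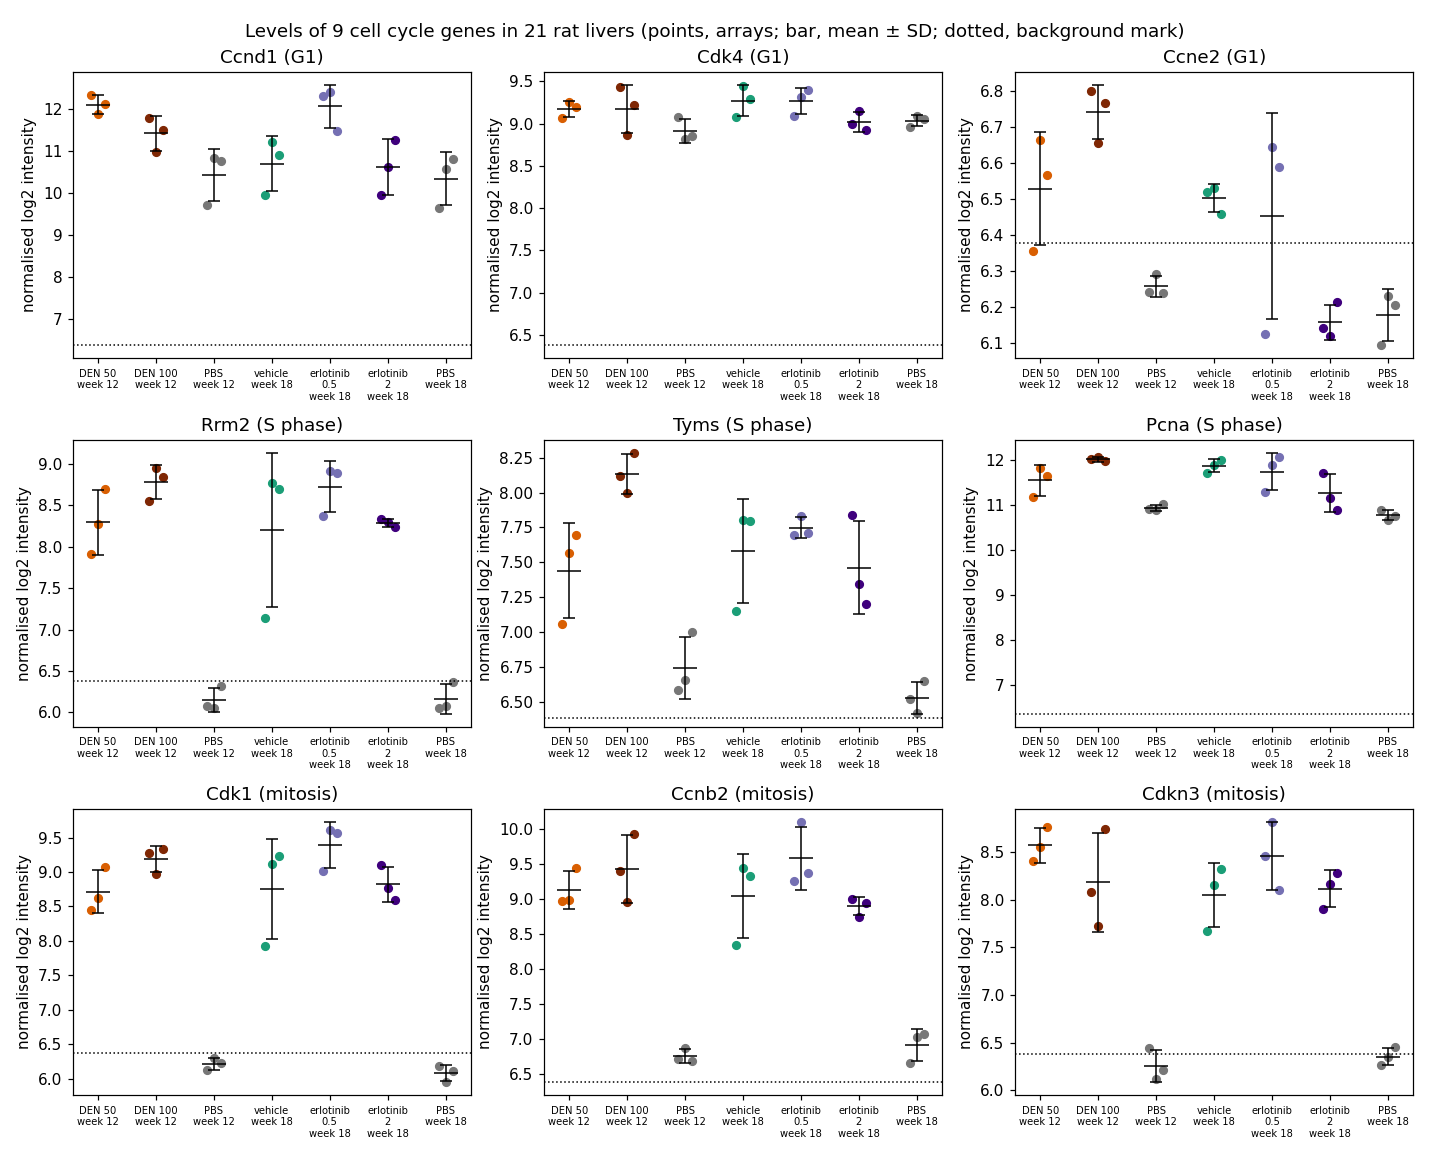
Normalised log2 intensity of 9 genes in the 7 groups; points are arrays, bars are mean ± SD (n = 3), and the dotted line is the background mark of 6.38. Cdk1, Ccnb2, Cdkn3, Rrm2 and Tyms lie higher on every DEN array than on any PBS array, Cdk4 overlaps between groups, and Ccnd1 is high in DEN 50 livers at week 12 and at erlotinib 0.5 mg/kg.

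Of the 26 mitosis genes, 16 rose and 1 fell in DEN 50 livers, 20 rose in DEN 100 livers, and 18 rose in vehicle livers at week 18. Their median change was 0.92, 1.0 and 1.03. Cdk1, the kinase that starts mitosis, read 8.46, 8.63 and 9.07 in DEN 50 livers and 9.27, 8.97 and 9.33 in DEN 100 livers, against 6.13, 6.30 and 6.23 in PBS livers at week 12. At week 18 it read 7.92, 9.11 and 9.23 in vehicle livers, against 6.19, 5.96 and 6.12 in PBS livers. All PBS arrays were below the background mark, and rat 24 was the lowest DEN array. Cdk1 rose by 2.50 ± 0.25 in DEN 50 livers (adjusted p = 5.1e-07), by 2.97 ± 0.25 in DEN 100 livers (adjusted p = 5.7e-09) and by 2.67 ± 0.25 in vehicle livers (adjusted p = 7.2e-08). Without rat 24 the rise in vehicle livers was 3.09.

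Ccnb2, cyclin B2, which binds Cdk1, read 8.97, 8.99 and 9.45 in DEN 50 livers and 9.40, 8.96 and 9.93 in DEN 100 livers, against 6.71, 6.87 and 6.67 in PBS livers. At week 18 it read 8.35, 9.45 and 9.34 in vehicle livers, against 6.65, 7.02 and 7.07 in PBS livers. It rose by 2.39 ± 0.26 (adjusted p = 1.8e-06), 2.68 ± 0.26 (adjusted p = 6.2e-08) and 2.13 ± 0.26 (adjusted p = 3.1e-06) in the DEN 50, DEN 100 and vehicle livers. Its relative Ccnb1, cyclin B1, lay between 6.01 and 6.60 on every array, near or just above background, and changed by -0.14, 0.03 and -0.14, none of them called. Ccna2, cyclin A2, of S phase and early mitosis, rose by 0.77 ± 0.20 (adjusted p = 0.015), 1.17 ± 0.20 (adjusted p = 0.00014) and 0.90 ± 0.20 (adjusted p = 0.0027).

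Cdkn3, a phosphatase that acts on cyclin-dependent kinases, read 8.40, 8.55 and 8.77 in DEN 50 livers and 8.07, 7.72 and 8.74 in DEN 100 livers, against 6.44, 6.11 and 6.21 in PBS livers. At week 18 it read 7.67, 8.15 and 8.32 in vehicle livers, against 6.27, 6.34 and 6.45 in PBS livers. No DEN array overlapped a PBS array, and Cdkn3 rose by 2.31 ± 0.21 (adjusted p = 2.1e-07), 1.92 ± 0.21 (adjusted p = 4e-07) and 1.69 ± 0.21 (adjusted p = 4.7e-06). Stmn1, stathmin, which makes microtubules less stable, read 9.45, 9.77 and 9.90 in DEN 50 livers and 8.88, 8.74 and 9.35 in DEN 100 livers, against 7.71, 6.72 and 7.91 in PBS livers. In the vehicle group it read 8.61, 9.49 and 9.58, against 7.38, 7.76 and 7.29 in PBS livers at week 18. Stmn1 rose by 2.26 ± 0.27 (adjusted p = 4.9e-06), 1.54 ± 0.27 (adjusted p = 0.00013) and 1.75 ± 0.27 (adjusted p = 5e-05), and it had the higher levels in DEN 50 of both DEN groups, without overlap.

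Genes of the spindle and of mitotic exit rose too. In the DEN 50, DEN 100 and vehicle comparisons, the spindle midzone protein Prc1 rose by 1.83, 1.93 and 1.80, the chromosome passenger kinase Aurkb by 1.35, 2.0 and 1.64, and the mitotic ubiquitin enzyme Ube2c by 1.31, 1.89 and 1.38. The motor proteins rose as well: Kif20a by 1.44, 1.66 and 1.40, Kif22 by 1.36, 1.63 and 1.37, and Kif11, the spindle motor that pushes the poles apart, by 1.36, 1.39 and 1.27. A second probe for Kif11 changed by -0.10, 0.01 and 0.10 at a mean level of 6.18, under the background mark, so the 2 probes differ in their calls. The checkpoint kinase Bub1 (0.94, 0.94 and 1.29), the chromatin protein Hmgb2 (1.02, 1.0 and 1.28), the anaphase activator Cdc20 (0.92, 1.01 and 1.14), the spindle assembly factor Tpx2 (0.92, 1.04 and 0.92) and the mitotic kinase Plk1 (0.55, 0.77 and 0.60) also rose in all 3. In DEN 50 livers the calls of Cdc20 (0.83 to 0.93), Plk1 (0.45 and 0.49) and Ccna2 (0.62 to 0.74) were lost without PBS rat 7 or DEN 50 rat 51, those of Cdc20 and Ccna2 also without DEN 50 rat 14, and that of Cdc20 also without PBS rat PBS_110. Over all 16 alternatives the DEN 50 calls of Cdc20, Plk1 and Ccna2 were lost 7, 4 and 5 times. Ect2, which starts the cleavage furrow, rose in DEN 100 (0.72) and vehicle livers (0.48) and had 0.33 in DEN 50 livers, not called. The Ect2 call in vehicle livers was lost under 6 of 16 alternatives. Among them were leaving out PBS rat 8 (0.40) or 9 (0.44) or vehicle rat 59 (0.45) or 69 (0.41). Nusap1 (0.59), which bundles spindle fibres, and Racgap1 (0.33), a partner of Ect2, rose in DEN 100 livers and were not called in the other 2. The Racgap1 call was lost under 7 of 15 alternatives. Among them were leaving out PBS rat PBS_108 (0.31) or PBS_110 (0.30) or DEN 100 rat DEN_112 (0.29) or DEN_113 (0.33). The Cdc20 call in DEN 100 livers was lost under 2 of 16, among them leaving out DEN_113 (0.84). The kinases Aurka and Melk, the checkpoint protein Bub1b and the phosphatase Cdc25b were not called in these 3 comparisons.

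The Cks proteins, small subunits that bind cyclin-dependent kinases, gave calls in opposite directions, but in different comparisons of the main fit. They are given here because Cks1b was the only member to fall, a choice made after its values were seen. Cks1b read 9.07, 9.37 and 8.93 in DEN 50 livers and 9.64, 9.30 and 10.24 in DEN 100 livers, against 9.83, 9.94 and 10.03 in PBS livers at week 12. It fell by 0.81 on the log2 scale in DEN 50 livers (SE 0.22, adjusted p = 0.018), to 0.571 of the PBS level, and its change in DEN 100 livers was -0.20 (adjusted p = 0.63). The DEN 50 call was lost without PBS rat PBS_108 (adjusted p = 0.050), PBS rat PBS_110 (0.065), DEN 50 rat 11 (0.057) or DEN 50 rat 51 (0.093), and with arrays scaled to a common median (-0.33, adjusted p = 0.45). At week 18 Cks1b read 10.04, 9.12 and 9.10 in vehicle livers, against 9.75, 9.89 and 9.96 in PBS livers. Rat 24 was the high array, so the change was -0.45 (adjusted p = 0.19) with it and -0.76 (adjusted p = 0.0079) without it. Cks2 read 9.22, 9.43 and 9.39 in DEN 50 livers and 9.30, 9.39 and 10.39 in DEN 100 livers, against 8.82, 8.86 and 8.56 in PBS livers. It rose by 0.95 ± 0.21 in DEN 100 livers (adjusted p = 0.0022) and by 0.86 ± 0.21 in vehicle livers (adjusted p = 0.0062), and its change in DEN 50 livers was 0.60 ± 0.21 (adjusted p = 0.087).

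As background, genes of late G1 and S phase are known for E2F sites in their promoters, and genes of mitosis for CCAAT boxes, which bind NF-Y, beside a cell cycle genes homology region (CHR), which binds the MuvB core of the DREAM and MYB complexes. Promoters of 39 of the 50 members were matched in RefSeq, build GRCr8, each running from 250 bases before to 50 bases after the gene's start. A CCAAT box (CCAAT or ATTGG, either strand) stood in 20 of 24 mitosis promoters (83.3%), where 37.5% of all 33469 promoters hold it. A CHR (TTTGAA or TTCAAA) stood in 16 of the 24 (66.7%), where the share of all promoters was 18.3%, and both stood in 15 (62.5%), where that share was 7.41%. An E2F site (TTTGGCGC, TTTCCCGC, TTTGCCGC or TTTCGCGC, either strand) stood in 7 of 11 S phase promoters (63.6%) and in 2 of 24 mitosis promoters (8.33%), where 2.14% of all promoters hold it. S phase promoters held a CCAAT box in 6 of 11 (54.5%) and a CHR in 1 (9.09%), and of the 4 G1 promoters 2 held a CCAAT box and none a CHR or an E2F site. A match describes letters in this window, not bound protein. The sequences below show the mitosis pattern in genes that rose (Cdk1, Ccnb2, Cks2), the same pattern in the one mitosis gene that fell (Cks1b), and the S phase pattern (Tyms). They run 5′ to 3′ along the gene's strand, with motif matches in capitals, and no match in them overlaps another.

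Cdk1, chr20:19265043-19265342 (+ strand): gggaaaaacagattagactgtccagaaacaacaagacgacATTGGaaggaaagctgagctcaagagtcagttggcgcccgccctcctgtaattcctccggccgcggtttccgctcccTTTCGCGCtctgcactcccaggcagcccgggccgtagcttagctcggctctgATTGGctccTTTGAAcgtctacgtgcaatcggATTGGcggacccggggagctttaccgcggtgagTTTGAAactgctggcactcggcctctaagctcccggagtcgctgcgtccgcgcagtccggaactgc
Ccnb2, chr8:79981609-79981908 (- strand): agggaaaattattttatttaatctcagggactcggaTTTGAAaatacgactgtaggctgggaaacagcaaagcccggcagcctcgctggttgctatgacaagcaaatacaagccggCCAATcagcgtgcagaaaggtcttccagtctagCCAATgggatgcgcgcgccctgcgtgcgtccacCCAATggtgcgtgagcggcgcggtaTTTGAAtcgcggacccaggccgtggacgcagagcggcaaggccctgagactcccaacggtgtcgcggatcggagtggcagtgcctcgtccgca
Cks2, chr17:13727470-13727769 (- strand): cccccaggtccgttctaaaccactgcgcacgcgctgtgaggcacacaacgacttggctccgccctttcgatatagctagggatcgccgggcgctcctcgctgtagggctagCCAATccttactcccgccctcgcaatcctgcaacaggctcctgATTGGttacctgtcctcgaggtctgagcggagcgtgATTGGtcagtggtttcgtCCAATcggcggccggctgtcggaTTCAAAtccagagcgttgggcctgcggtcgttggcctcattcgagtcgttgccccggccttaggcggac
Cks1b, chr2:177135284-177135583 (- strand): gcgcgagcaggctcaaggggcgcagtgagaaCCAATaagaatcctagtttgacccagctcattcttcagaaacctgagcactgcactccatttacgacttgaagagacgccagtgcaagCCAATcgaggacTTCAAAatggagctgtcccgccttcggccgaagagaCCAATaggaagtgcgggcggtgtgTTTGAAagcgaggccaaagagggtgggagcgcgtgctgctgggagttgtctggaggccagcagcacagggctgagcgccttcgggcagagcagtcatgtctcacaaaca
Tyms, chr9:120776034-120776333 (- strand): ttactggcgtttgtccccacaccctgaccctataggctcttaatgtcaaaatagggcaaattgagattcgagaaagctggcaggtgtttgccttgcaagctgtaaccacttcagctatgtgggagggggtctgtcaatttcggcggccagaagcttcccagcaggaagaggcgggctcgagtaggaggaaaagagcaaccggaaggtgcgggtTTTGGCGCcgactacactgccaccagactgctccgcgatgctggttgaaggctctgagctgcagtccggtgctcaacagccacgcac

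Positions are those of the motif's first base, counted so that -1 is the base before the start. Cdk1 held CCAAT boxes at -210, -81 and -49, CHR letters at -72 and -16, and an E2F site at -133. Ccnb2 held CCAAT boxes at -134, -101 and -68 and CHR letters at -214 and -43. Cks2, which rose in DEN 100 and vehicle livers, held CCAAT boxes at -139, -96, -60 and -42 and CHR letters at -19, while Cks1b, which fell in DEN 50 livers, held CCAAT boxes at -219, -131 and -83 and CHR letters at -119 and -59. Both kinds of motif were thus present in a member that fell and in members that rose. Tyms held the E2F site alone of the 3 motifs, at -37.

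The DEN doses were compared directly at week 12, DEN 100 against DEN 50. Tyms was the only member called, and it was higher in DEN 100 livers by 0.69 ± 0.19 (adjusted p = 0.021), where 4.39% of all features were higher and 3.72% lower. That call was lost without DEN 50 rat 11 (0.50, adjusted p = 0.16) or DEN 100 rat DEN_113 (0.62, adjusted p = 0.10). The median difference over the 43 genes was 0.09. Arrays did not overlap for 6 members higher in DEN 100 livers (Ccne1, Pcna, Tyms, Aurkb, Ube2c and Ect2) and 2 lower (Ccnd1 and Stmn1), where 10.6% of all features were higher and 9.73% lower without overlap. Ccnd1 differed by -0.68 ± 0.37 (adjusted p = 0.38) and Stmn1 by -0.72 ± 0.27 (adjusted p = 0.12). Nothing was called for Cdk1 (0.47), Ccnb2 (0.29) or Rrm2 (0.49), whose adjusted p ran from 0.34 to 0.69.

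Over time, no member changed past the test. No member was called between vehicle livers at week 18 and DEN 50 livers at week 12, where 0.476% of all features were called, and 2 members had an unadjusted p under 0.05. Without rat 24 again none was called, but 10 members were higher and 1 lower in vehicle livers at an unadjusted p under 0.05, with a median of 0.18. Leaving out rat 59 or rat 69 called none either, and the medians were -0.05 and -0.07. There 2 and 4 members were lower and none higher at that unadjusted p. None was called between PBS livers at week 18 and PBS livers at week 12, where 0% of all features were called and 1 member had an unadjusted p under 0.05. The vehicle rats had also had vehicle injections, which the DEN 50 rats of week 12 had not. Of the 20 genes that rose in DEN 50 livers at week 12 and the 23 that rose in vehicle livers at week 18, 19 were the same. That is 95% of the week 12 list and 82.6% of the week 18 list, and the comparisons share no control arrays. Of all 22067 features, 1091 rose at week 12, 1826 rose at week 18 and 852 (3.86%) rose in both. Most features of any kind that rose at week 12 thus also rose at week 18. The gene in the week 12 list alone was Ccnd1, and those in the week 18 list alone were Pcna, Mcm3, Cks2 and Ect2. The DEN 50 effect did not differ between the time points for any member past the test, where 0.204% of all features were called and 1 member had an unadjusted p under 0.05. Without rat 24 none was called either, 6 members had a higher effect at week 18 at an unadjusted p under 0.05, and the median was 0.19. The median was -0.003 without rat 59 and -0.04 without rat 69, again with no call.

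Erlotinib was compared with vehicle in DEN 50 rats at week 18, and by limma's test no member was called at either dose. At 2 mg/kg the cell cycle genes as a group had a median change of -0.01, and 19 of 43 changes were above 0. By the test that called no member, 1.65% of all features rose and 1.8% fell. There were 4 members with an unadjusted p under 0.05. Cdk1 read 9.10, 8.76 and 8.60 in erlotinib 2 mg/kg livers, against 7.92, 9.11 and 9.23 in vehicle livers. The erlotinib arrays lay between rat 24 and the other vehicle rats, and the change was 0.06 (95% interval -0.45 to 0.57, adjusted p = 0.96). Rrm2 read 8.34, 8.29 and 8.24 in erlotinib 2 mg/kg livers, against 7.13, 8.77 and 8.70 in vehicle livers, a change of 0.09 (95% interval -0.51 to 0.68). Ccnb2 (-0.15), Cdkn3 (0.07), Stmn1 (-0.04) and Tyms (-0.12) were not called either.

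Pcna and Mcm3 of S phase and Ccne2 of G1 had lower means at 2 mg/kg than in vehicle livers, none of them called. Pcna read 11.71, 11.16 and 10.89 in erlotinib 2 mg/kg livers, against 11.71, 11.89 and 11.99 in vehicle livers, and its change was -0.61 (95% interval -1.01 to -0.21, adjusted p = 0.096). It became a call without erlotinib rat 27 (-0.84, adjusted p = 0.020), the highest of its group. Mcm3 read 6.39, 6.49 and 6.22 in erlotinib 2 mg/kg livers, against 6.65, 6.85 and 6.76 in vehicle livers, without overlap, a change of -0.39 (adjusted p = 0.15). Ccne2 read 6.14, 6.12 and 6.21 in erlotinib 2 mg/kg livers, against 6.52, 6.53 and 6.46 in vehicle livers, again without overlap, and its change was -0.34 (adjusted p = 0.14). These levels of Ccne2 lie within the range of PBS livers at week 18, under the background mark. Cdc6 and Racgap1 were the other members whose arrays did not overlap, 4 of 43 lower and none higher, where 9.92% of all features were lower and 8.9% higher without overlap.

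Rat 24 bore on these values. It was the lowest of the 3 vehicle arrays for 36 of the 43 members, and the lowest of all DEN arrays for 14 of the 26 mitosis genes. Without it, no member was called at 2 mg/kg either, but the median change was -0.26 instead of -0.01, 36 of 43 changes lay below 0, and 9 members had a lower value at an unadjusted p under 0.05. By role the medians without rat 24 were -0.34 for G1, -0.27 for S phase and -0.21 for mitosis, against -0.21, -0.06 and 0.04 with it. Without vehicle rat 59 or rat 69 the median over all members was 0.06.

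At 0.5 mg/kg, changes against vehicle lay above 0 for 35 of 43 members, with a median of 0.23. No member was called, where by the same test 0.0906% of all features rose and 0.0317% fell. There were 10 members with an unadjusted p under 0.05. Ccnd1 read 12.32, 12.40 and 11.47 in erlotinib 0.5 mg/kg livers, against 9.96, 11.22 and 10.91 in vehicle livers. Every erlotinib array was above every vehicle array, and the change was 1.37 (95% interval 0.59 to 2.15, adjusted p = 0.16). Stmn1 read 9.86, 10.38 and 9.98 in erlotinib 0.5 mg/kg livers, against 8.61, 9.49 and 9.58 in vehicle livers, also without overlap, a change of 0.85 (adjusted p = 0.22). In all 4 members, with Mcm7 and Racgap1, had every array at 0.5 mg/kg above every vehicle array, where 7.91% of all features did. Cdk1 had 0.64 (95% interval 0.13 to 1.15, adjusted p = 0.32). Without rat 24 the median over the 43 members was 0.08 and 1 had an unadjusted p under 0.05. The median was 0.30 without rat 59 and 0.34 without rat 69, where 15 and 18 members were higher at that unadjusted p.

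**Figure D3:**
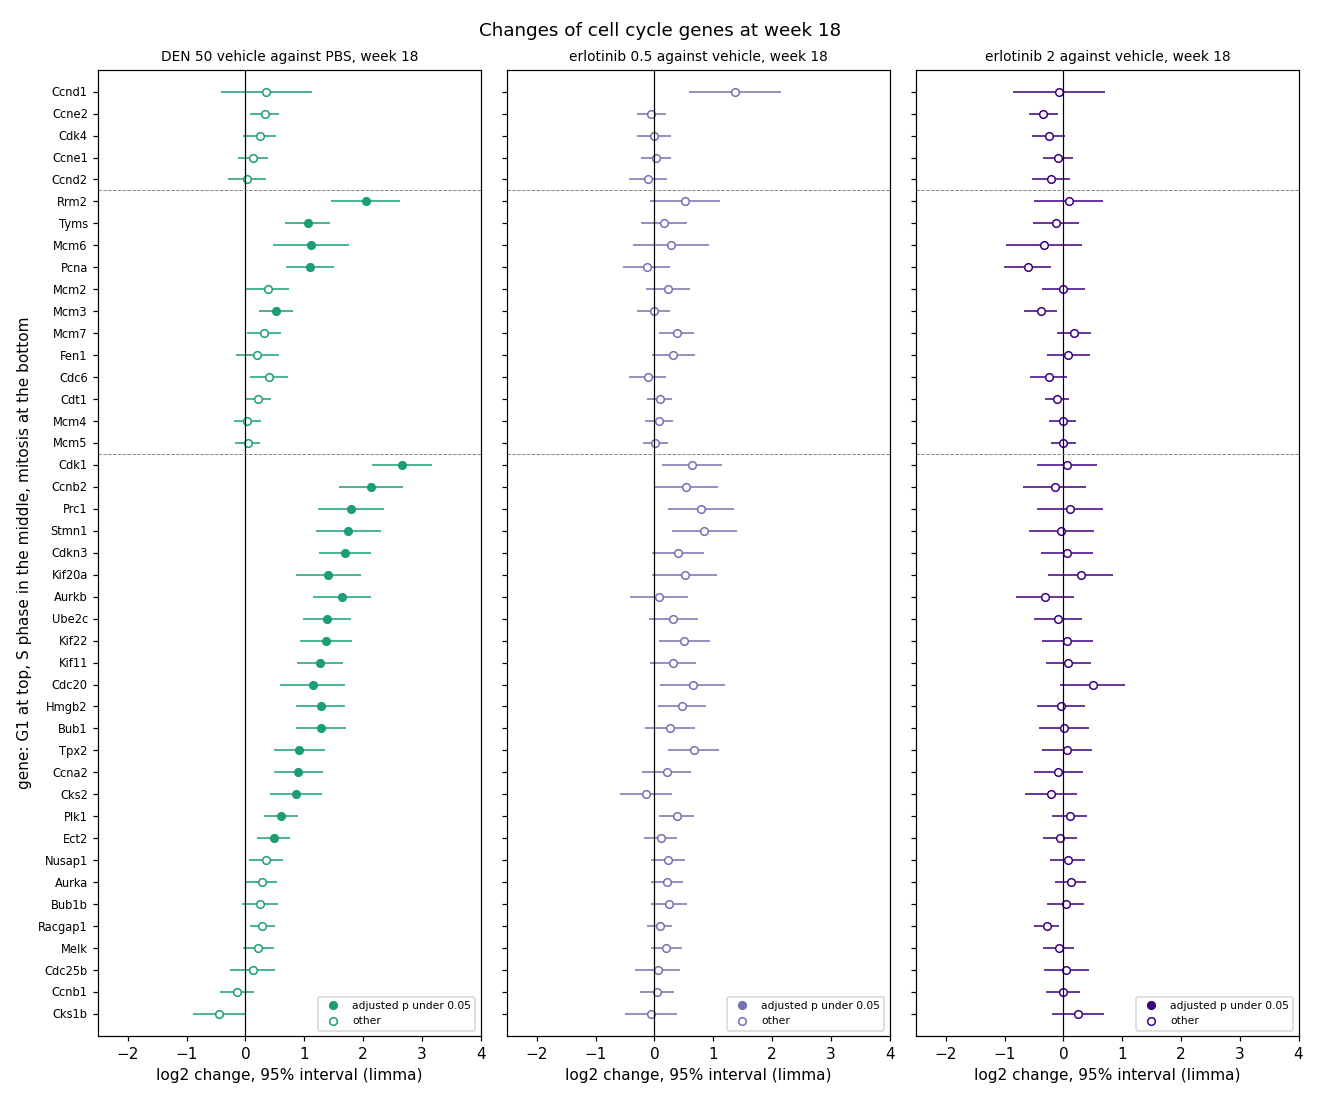
Log2 change of each of the 43 genes at week 18 with its 95% interval, for DEN 50 vehicle livers against PBS livers (left), and for erlotinib at 0.5 mg/kg (middle) and 2 mg/kg (right) against vehicle; filled points are called and open points are not. The left panel holds 23 filled points, most of them mitosis genes, and the other panels hold open points alone, with Ccnd1 the farthest right at 0.5 mg/kg (1.37).

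Between the erlotinib groups, values were lower at 2 mg/kg than at 0.5 mg/kg for 42 of the 43 members, with a median difference of -0.25. Members read on the same arrays are not separate observations, and dose and study cannot be told apart. None was called, where 0.068% of all features were. There were 14 members with an unadjusted p under 0.05, and 12 whose arrays at 2 mg/kg all lay below those at 0.5 mg/kg, where 7.93% of all features did. The share of all features at that unadjusted p was not counted. Ccnd1 read 9.95, 10.63 and 11.27 in erlotinib 2 mg/kg livers, against 12.32, 12.40 and 11.47 in erlotinib 0.5 mg/kg livers, a difference of -1.45 (95% interval -2.22 to -0.67, adjusted p = 0.15). Stmn1 differed by -0.89 (95% interval -1.44 to -0.33, adjusted p = 0.26). With only these 2 groups in the fit, Ccnd1, Prc1 and Stmn1 were called lower at 2 mg/kg (adjusted p = 0.024, 0.042 and 0.012). The share of 0.068% above is that of the main fit, not of this one. The share for this fit is not given here, so these calls establish no difference particular to the members. This fit was 1 of 10 settings, 8 of which called no member, and leaving out 1 array called none.

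Members rose in both erlotinib groups against PBS livers. At 0.5 mg/kg 32 members rose and none fell, where 6.88% of all features rose and 6.45% fell, and at 2 mg/kg 19 rose and none fell, where 2.92% rose and 2.01% fell. Both comparisons share the 3 PBS arrays. Cdk1 rose by 3.31 ± 0.25 at 0.5 mg/kg (adjusted p = 7.7e-09) and by 2.73 ± 0.25 at 2 mg/kg (adjusted p = 3.8e-07). Among mitosis genes 23 of 26 rose at 0.5 mg/kg with a median of 1.57, and 16 of 26 at 2 mg/kg with a median of 1.11. Among S phase genes 8 of 12 rose at 0.5 mg/kg, and 3 of 12 at 2 mg/kg (Mcm7, Rrm2 and Tyms). The Mcm7 call at 2 mg/kg was lost under 8 of 16 alternatives, among them leaving out PBS rat 9 (0.45) or 18 (0.39) or erlotinib rat 29 (0.41) or 31 (0.47), and the Tyms call under 2 of 16, which scaled arrays by their median (0.96) or by bright probes (0.64). Ccnd1 rose at 0.5 mg/kg, by 1.72 ± 0.37 (adjusted p = 0.0025), and its change at 2 mg/kg was 0.28 ± 0.37 (adjusted p = 0.81). Pcna rose by 0.97 ± 0.19 at 0.5 mg/kg (adjusted p = 0.0012), and at 2 mg/kg its change was 0.49 ± 0.19 (adjusted p = 0.18).

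Further genes of the cell cycle were counted from other lists. Of all features 4.94%, 9.92% and 8.27% rose in the DEN 50, DEN 100 and vehicle comparisons, and 4.4%, 8.52% and 7.58% fell. Of 34 measured genes of a further list of 50 mitosis genes, 12 rose in DEN 50, 17 in DEN 100 and 15 in vehicle livers, and none fell. The count in vehicle livers was 17 without rat 24, 11 without rat 59 and 9 without rat 69. Among them the kinetochore protein Nuf2 rose by 1.36, 1.40 and 1.28. Of 34 measured genes of a list of 40 replication and repair genes, 6 rose and 1 fell in DEN 50 livers. In DEN 100 livers 12 rose and 3 fell, and in vehicle livers 10 rose and 1 fell. The counts in vehicle livers were 14 and 2 without rat 24, 9 and 1 without rat 59, and 8 and 1 without rat 69. Rfc4, a subunit of the loader of Pcna, rose by 0.75, 1.79 and 1.11, and Gmnn, geminin, which blocks a second round of replication, by 1.21 in vehicle livers. Ung, the glycosylase that removes uracil from DNA, fell by 0.66, 1.72 and 1.52 on the log2 scale. It was also the only gene of that list called at erlotinib 2 mg/kg against vehicle, where it rose by 0.82 (adjusted p = 0.013). That call was lost without rat 24 (0.72, adjusted p = 0.062), and Gins1, a part of the replicative helicase complex, was then the one gene of the list called, with a change of -0.57 (adjusted p = 0.042).

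Among brakes of the cycle, genes were called in both directions. In the DEN 50, DEN 100 and vehicle comparisons 4.94%, 9.92% and 8.27% of all features rose, and 4.4%, 8.52% and 7.58% fell. In lists this short a count of 1 gene is not read as a result about the list. Of 11 measured genes of a list of 15 inhibitors and pocket proteins, 1 rose and 4 fell in DEN 50 livers, 2 rose and 3 fell in DEN 100 livers, and 1 rose and 2 fell in vehicle livers (3 fell without rat 24, and 1 without rat 69). Ccng1, cyclin G1, a target of p53, rose by 0.94, 2.87 and 1.06, and its difference between DEN 100 and DEN 50 livers was 1.94 ± 0.22 (adjusted p = 5e-06). Cdkn1a, the inhibitor p21, also a target of p53, rose by 1.29 in DEN 100 livers, and it was higher in DEN 100 than in DEN 50 livers by 0.92 ± 0.14 (adjusted p = 0.00016). The antiproliferative genes Tob1 (-1.20) and Btg1 (-0.99) fell in DEN 50 livers, and the pocket protein genes Rbl2 (-0.67) and Rb1 (-0.49) fell in vehicle livers, though not without rat 69 for Rb1 (-0.41, adjusted p = 0.097). The mean level of Rb1 was 6.36 in vehicle livers, under the background mark, and 6.85 in PBS livers at week 18. Of 17 measured genes of a list of 25 G1 and transcription regulators, 2 rose and 1 fell in DEN 50, 6 rose in DEN 100, and 7 rose and 1 fell in vehicle livers (5 and 1 without rat 24). Myc, a growth-promoting transcription factor, rose by 1.98 and the Cdk1-inhibiting kinase Wee1 by 1.19 in vehicle livers, and Wee1 fell by 1.45 on the log2 scale at erlotinib 2 mg/kg against vehicle (adjusted p = 0.026). The mean level of Myc was 10.1 both in vehicle livers and in DEN 50 livers at week 12. In PBS livers it was 8.17 at week 18 and 9.13 at week 12. Both Wee1 calls were lost without rat 24 (0.91, adjusted p = 0.14, and -1.17, adjusted p = 0.13).

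Markers of other cell types of the liver moved over the same groups. The shares of all features that rose were 4.94%, 9.92% and 8.27% in the DEN 50, DEN 100 and vehicle comparisons. The shares that fell were 4.4%, 8.52% and 7.58%, and small counts in these short lists are not read as results. All 6 measured cholangiocyte markers, of 9 listed, rose in DEN 100 livers, 3 rose in DEN 50 livers and 4 in vehicle livers. Their mean level ran from 8.14 to 8.86 in DEN 50 livers and from 9.04 to 10.16 in DEN 100 livers, against 6.73 to 7.25 in PBS livers, and from 8.49 to 9.45 in vehicle livers, against 6.91 to 7.11 in PBS livers at week 18. Of 8 measured myofibroblast markers, of 10 listed, 4, 6 and 7 rose in the DEN 50, DEN 100 and vehicle comparisons, and of 7 macrophage markers, of 11 listed, 2, 5 and 6 rose while 1, 1 and none fell. None of the 8 measured hepatocyte markers rose in these comparisons, and 2, 3 and 3 fell. Of 11 measured T and NK cell markers none rose in DEN 50, 2 in DEN 100 and 3 in vehicle livers. Of 6 measured endothelial markers none, 3 and 3 rose and none, none and 1 fell. The calls among the 5 B cell, 8 neutrophil and 7 erythroid markers measured, named after their values were seen, were Cd79b, which fell in DEN 100 livers (-0.55), S100a8, which rose in DEN 100 (2.05) and vehicle livers (2.59), Hbb, which fell in DEN 50 livers (-1.86), and Ahsp, which rose in vehicle livers (1.59) but not without rat 24 (0.87) or 69 (1.58). The B cell markers Ms4a1, Pax5 and Mzb1, the neutrophil markers S100a9, Csf3r, Cxcr2 and Ngp, and the erythroid markers Klf1 and Gata1 were near background in all 7 groups. Without rat 24, 5 cholangiocyte, 7 myofibroblast and 5 macrophage markers rose and 2 hepatocyte markers fell in vehicle livers, and without rat 59, 5 hepatocyte markers fell. The part of these cells in the changes of the cell cycle genes was not tested.

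At erlotinib 2 mg/kg against vehicle these lists and the cell cycle genes gave different counts. Of the myofibroblast markers 6 of 8 fell and of the cholangiocyte markers 3 of 6 fell, while no cell cycle member was called. In this comparison 1.65% of all features rose and 1.8% fell. Myofibroblast levels ran from 8.43 to 8.57 in erlotinib 2 mg/kg livers, against 9.58 to 9.67 in vehicle livers, and cholangiocyte levels from 7.78 to 8.27 in erlotinib 2 mg/kg livers, against 8.49 to 9.45 in vehicle livers. The difference between the lists was not tested. Mean levels of the 26 mitosis genes ran from 7.56 to 7.72 in erlotinib 2 mg/kg livers, against 7.21 to 7.86 in vehicle livers. Rat 24 had the lowest mitosis mean of the vehicle group. Without it the mitosis genes had a median change of -0.21, with 21 of 26 below 0 and none called. That median was 0.08 without rat 59 and 0.13 without rat 69. Of the markers, 4 of 8 myofibroblast and 4 of 6 cholangiocyte markers fell without rat 24. Without rat 59 these counts were 5 and 1, and without rat 69 they were 3 and 0 by limma, where 4 cholangiocyte markers were lower at an unadjusted p under 0.05.

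**Figure D4:**
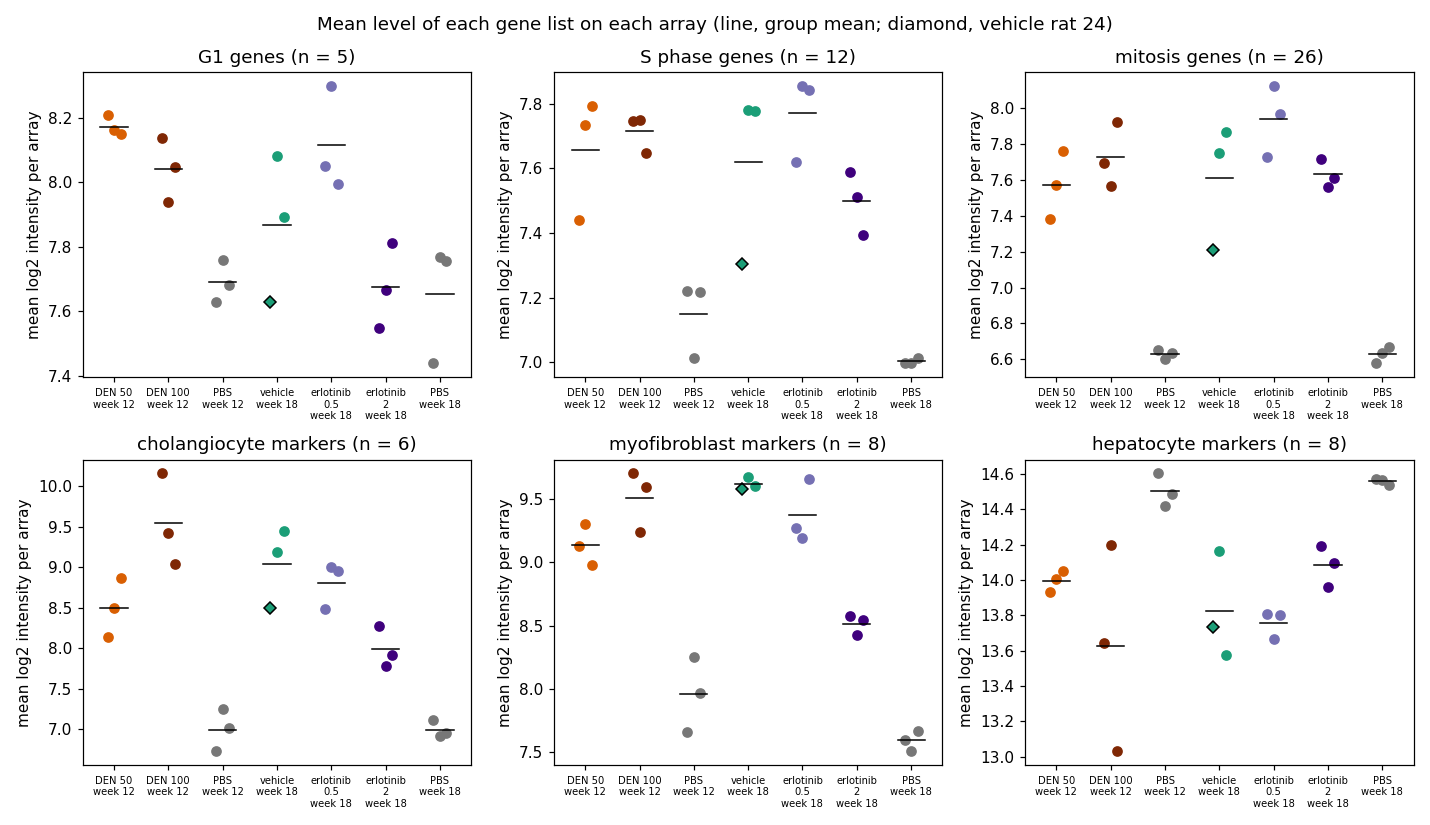
Mean log2 intensity per array of the G1, S phase and mitosis genes and of the cholangiocyte, myofibroblast and hepatocyte markers in the 7 groups; points are arrays, lines are group means, and the diamond is vehicle rat 24. The mitosis means are higher on every DEN array than on any PBS array, rat 24 is lowest among the DEN arrays for the mitosis and S phase genes, and the myofibroblast means at erlotinib 2 mg/kg lie below all vehicle arrays.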

How the data were processed

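Total RNA was extracted with TRIzol from snap-frozen non-tumour liver and run on Illumina bead arrays, per the labels' protocols. The raw table deposited by the authors holds bead intensity on a linear scale for 22523 probes. A second deposited table holds intensity normalised by the authors, with array medians of 135.5 to 136.8; its normalisation method is not named in the labels or headers.

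Raw intensities were background corrected with limma 3.58.1 in R 4.3.3 (normexp, offset 50), then turned into log2 values and quantile normalised. The brightest probe over 21 arrays stood for a gene, which with 8730 unnamed probes gave 22067 features. No filter on low values was applied, so all 43 members with a named probe were tested. Group means were fitted over 7 groups of 3 arrays with 14 residual degrees of freedom and compared by limma's moderated test, with Benjamini-Hochberg adjustment over all features and a threshold of 0.05. Intervals are at the 95% level. The number of arrays limits the precision, and neither detection p-values nor a batch label was at hand.

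The members, the other gene and marker lists and the tests were chosen with earlier results of these data known. Per-array values are given for the 4 members of each role with the largest moderated statistic in DEN 50 against PBS at week 12 or in vehicle against PBS at week 18, and for members called between doses, over time or under erlotinib. Of the other lists, up to 3 called genes with the largest changes per list and comparison could be named. Cks1b, Cks2 and further members were named for their calls. Alternatives were the deposited normalised table, other background, scaling and filter settings, another spread model, array weights, fewer groups, mean of probes, and each array left out. The fit was tested on simulated data. Promoter sequences are those of RefSeq, build GRCr8. Figures were drawn with Python 3.11.15 and matplotlib 3.10.9.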

Additional observations from a re-analysis of the deposited data

How the results depend on the processing

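Of the 120 calls of single members, 80 held under every alternative and 40 were lost in at least 1. Over the settings, members called ran from 14 to 24 in DEN 50 against PBS, 19 to 27 in DEN 100 against PBS, 18 to 26 in vehicle against PBS, 13 to 21 at erlotinib 2 mg/kg against PBS and 21 to 33 at 0.5 mg/kg against PBS. Leaving out 1 array gave 15 to 22, 23 to 25, 21 to 25, 17 to 19 and 25 to 31. Scaling by bright probes moved the median of all features by -0.53 in DEN 50 and -0.44 at erlotinib 0.5 mg/kg, both against PBS; there it called 21 members at 0.5 mg/kg against PBS in place of 32, and Cdt1 (-0.15), Racgap1 (-0.084) and Melk (-0.026) turned below 0 without being called. For DEN 100 against DEN 50, array weights called 2 members and so did the deposited normalised values, while median scaling called 0 and a fit of only the groups compared 0, in place of 1; leaving out 1 array gave 0 to 3, with 0 without DEN 50 rat 11 or DEN 100 rat DEN_113, 2 without DEN 50 rat 51 or DEN 100 rat DEN_111, and 3 without DEN 100 rat DEN_112. For erlotinib 2 mg/kg against 0.5 mg/kg, array weights called 2 and a fit of only these groups 3, in place of 0. For erlotinib 2 mg/kg against vehicle, array weights called 1 (Pcna, -0.64) and leaving out 1 array gave 0 to 1, again Pcna, without erlotinib rat 27. The cause of these shifts was not tested. The share of all features called under each alternative is not given here. These member counts thus do not show whether the members moved more than other features. Signal over background limits the members near background in PBS livers. No paired analysis was possible because the groups share no rat numbers.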
